A study of Mus musculus with 12 samples.

Results

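Smooth muscle cells and pericytes are the mural cells that wrap blood vessels, and 10 genes by which they are recognised were followed in mouse calf muscle. The 10 were chosen by gene name from a table of 54532 genes, with earlier results of these data known. Shares of the 10 beside all genes are therefore descriptions and not separate support. The smooth muscle contractile genes are Myh11, Acta2, Tagln and Cnn1, and the pericyte and mural markers are Rgs5, Pdgfrb, Cspg4, Mcam and Abcc9. The last is Foxs1, a forkhead transcription factor. Each name matched 1 row, and all 10 were among the 12754 genes tested, those with a mean of at least 0.5 FPKM. FPKM here means fragments scaled to gene length and to a size factor of each library, not to its total.

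RNA came from the gastrocnemius of female ICR SCID mice, an immunodeficient strain, with 4 biological replicates in each of 3 groups. TL mice carried a subcutaneous HT1080 tumour, grown from a human fibrosarcoma cell line, and were given selpercatinib, a drug that inhibits the RET receptor kinase, by daily oral gavage at 30 mg/kg for 19 days. TV mice carried the same tumour and were given vehicle. NTV mice had no tumour and were given vehicle. Every group was therefore SCID and dosed with drug or vehicle, and the tumour model is 1 human cell line. The age of the mice is not given in the sources used here. The study is about selpercatinib in cachexia, the wasting of fat and muscle in cancer. Libraries are named below by group and by the replicate number of the mouse, such as TV 8.

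Vascular smooth muscle cells surround arteries and veins and set their width by contraction, through smooth muscle myosin and actin and the calponin family of actin-binding proteins. Pericytes lie on capillaries, inside the basement membrane that they share with endothelial cells, and are held there by endothelial PDGF-B acting on the receptor PDGFR-beta. In skeletal muscle, capillaries with pericytes run along every fibre, while smooth muscle is limited to the larger vessels. No marker is perfectly private: Pdgfrb is also made by fibroblasts, Mcam by endothelial cells, and the protein of Abcc9, SUR2, is a subunit of the ATP-sensitive potassium channel of muscle fibres as well as of vessels.

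Contractile genes of smooth muscle are classical targets of serum response factor, which binds a sequence known as the CArG box. The 250 bases upstream of the start of Acta2 and Cnn1 are shown because these 2 contractile genes, with Myh11, were highest in the same 3 libraries of the 12. They are from RefSeq, build GRCm38.p6, read 5′ to 3′ on the strand of the gene, from chr19:34255374-34255623 on the minus strand for Acta2 and chr9:22099003-22099252 on the plus strand for Cnn1. Capitals mark matches to the CArG box with 1 mismatch in its core.
Acta2: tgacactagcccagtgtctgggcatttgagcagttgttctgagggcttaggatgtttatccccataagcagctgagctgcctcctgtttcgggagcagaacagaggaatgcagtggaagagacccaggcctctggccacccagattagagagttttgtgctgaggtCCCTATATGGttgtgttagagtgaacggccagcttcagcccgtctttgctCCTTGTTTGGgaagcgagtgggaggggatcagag
Cnn1: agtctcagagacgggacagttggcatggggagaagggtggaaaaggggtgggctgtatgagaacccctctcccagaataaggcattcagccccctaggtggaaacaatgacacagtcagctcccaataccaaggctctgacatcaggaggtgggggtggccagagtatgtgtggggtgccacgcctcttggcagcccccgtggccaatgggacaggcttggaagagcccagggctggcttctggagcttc
RefSeq promoters were found for 6 of the 10 genes, namely Rgs5, Abcc9, Cnn1, Mcam, Cspg4 and Acta2. Each window searched holds 300 bases, up to 50 of them past the start, and both strands were read. The exact CArG box, searched by that name, was in 0 of the 6 and in 1.63% of 32851 mouse promoters of the same length. The form with exactly 1 mismatch in the core was in 1 of the 6, Acta2, and in 8.50% of all promoters. In Acta2 it lay at positions -84 to -75 and -34 to -25 from the start. The MEF2 box was in 1 of the 6, Abcc9, and in 3.19% of all promoters. The forkhead sequence TGTTTAC was in 0 of the 6 and in 3.65% of all promoters, and TATAAA was in 0 of the 6 and in 13.6%. A match is a description of letters and not of binding.

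Levels of the 10 genes spanned a wide range. Per length of gene, Rgs5 was the most abundant, with a mean of 71.9 FPKM over the 12 libraries, which was above the mean of 99.0% of the genes in the table. Abcc9 followed at 44.2 FPKM and Acta2 at 40.0 FPKM. A middle tier was formed by Mcam at 8.56, Myh11 at 6.95 and Pdgfrb at 4.62 FPKM. Cnn1 averaged 1.24 FPKM, Cspg4 0.848 FPKM, Foxs1 0.739 FPKM and Tagln 0.50 FPKM. Neighbours in this order overlapped between libraries within each tier, so the order inside a tier is not firm. Tagln passed the 0.5 FPKM filter only just, and Foxs1 passed it only because of its level in NTV muscle. The order of variation was different: the highest library exceeded the lowest by 24.8-fold for Foxs1, 14.1-fold for Cnn1 and 6.23-fold for Myh11, but by 2.00-fold for Rgs5 and 1.5-fold for Abcc9.

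**Figure D1:**
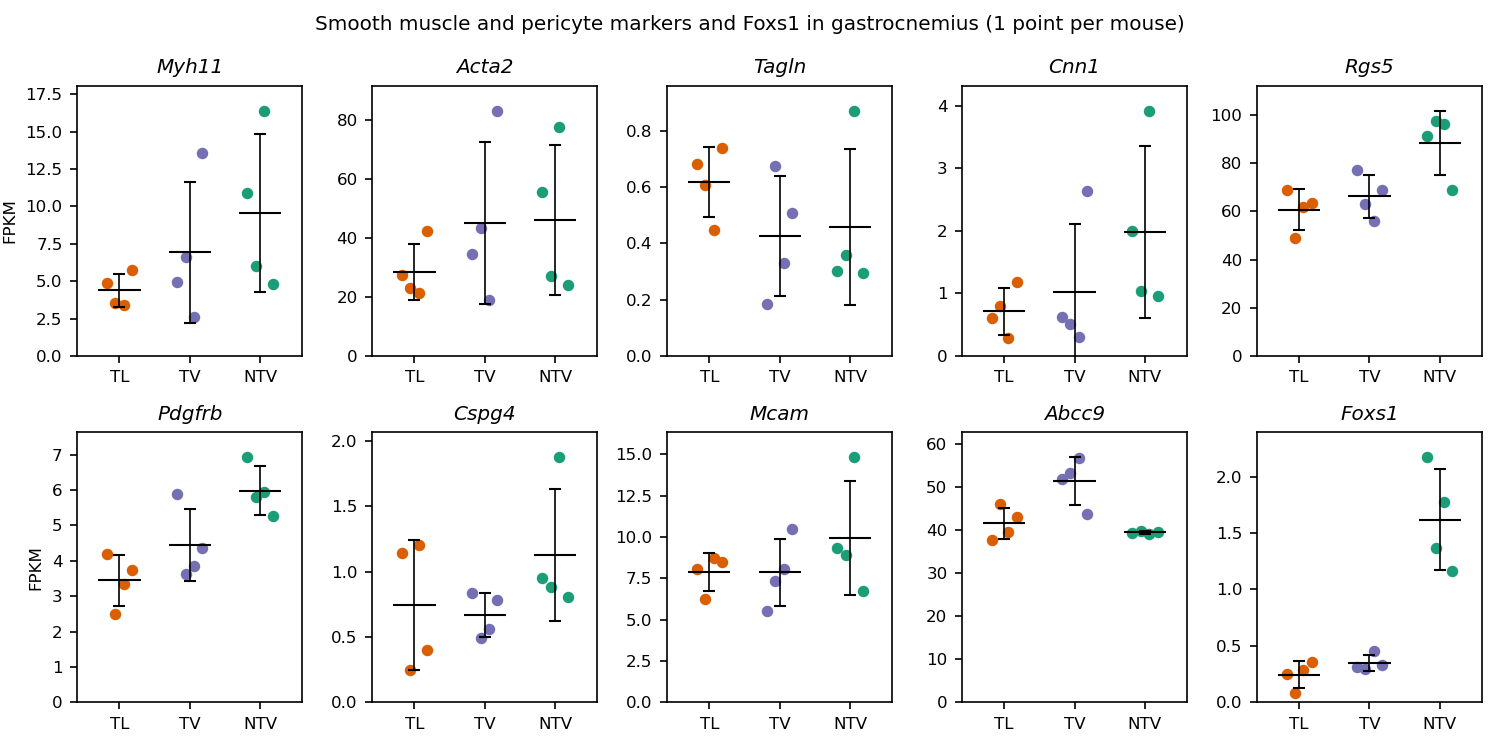
Level of each gene (FPKM, linear axes from 0) in the 12 mice, by group, with 1 point per mouse, a bar at the group mean and whiskers of 1 SD (n = 4). The lower whisker of Cnn1 in TV is cut off at 0 because the SD exceeds the mean. Foxs1 lies between 0.0875 and 0.456 FPKM in all 8 tumour-bearing mice and between 1.17 and 2.17 FPKM in the 4 NTV mice, whereas the contractile genes overlap widely between groups.

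Depth ranged from 14939830 to 23580603 reads in genes per library. On a principal component plot of all tested genes, TL 1 and TL 5 stood apart from the other libraries on the second component, and calls that change without them are named with their values. Over all 12754 genes the median log2 difference was 0.02 for TV against NTV, -0.00 for TL against TV and 0.02 for TL against NTV. Differences below are log2 differences of FPKM + 0.5 with their SE, and p-values are from limma with Benjamini-Hochberg adjustment over all tested genes. The threshold for a call was an adjusted p of 0.05. Adding 0.5 makes the differences of weakly expressed genes look smaller than they are. TV against NTV and TL against NTV share the 4 NTV libraries, and TL against TV shares the 4 TV libraries with the first of these, so the comparisons are not independent. The tissue is whole muscle, and fewer cells of a type cannot be told apart from less RNA per cell.

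The comparison of TV with NTV asks what differs in the muscle of vehicle-treated mice when a tumour is present. Of the 10 genes, Foxs1 fell, Abcc9 rose, and 8 did not pass the test. Called lower was 1 of 10, where the same test called 11.5% of all tested genes lower, and called higher was 1 of 10, against 13.8% of all genes. For the same 2 genes the TV and NTV libraries did not overlap, Foxs1 below and Abcc9 above. Such separation was seen in 12.7% of all genes with TV lower and in 14.4% with TV higher. The share of called genes was thus near that of the whole table. The differences were negative for 9 of the 10 genes, with a median of -0.41, where 48.2% of all genes were negative. Without Foxs1, which passed the filter only through NTV, 0 of the other 9 were called lower, and their median was also -0.41. Of the 10, 4 had an unadjusted p under 0.05, as had 39.1% of all genes.

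The comparison of TL with TV asks what differs with selpercatinib in tumour-bearing mice. Limma called 0 of the 10 genes, and voom on the recovered reads also called 0. Of all tested genes, 0.517% were called in either direction. Only Abcc9 had an unadjusted p under 0.05, as had 16.1% of all genes. For 0 of the 10 genes did the TL and TV libraries separate, against 7.42% of all genes. The differences had a median of -0.17 and were negative for 7 of the 10 genes, against 50.6% of all genes.

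The comparison of TL with NTV sets drug-treated tumour-bearing mice against mice without a tumour, so tumour and drug differ together. Foxs1, Pdgfrb and Rgs5 fell and 7 genes did not pass the test. The 3 of 10 called lower stand beside 4.62% of all genes called lower, and 0 of 10 called higher beside 4.19%. By voom 3 of the 10 were called, where voom called 1263 of the 12754 tested genes in either direction. TL and NTV libraries were separated for Foxs1 and Pdgfrb, with TL lower, as they were for 10.1% of all genes, and for 0 of 10 with TL higher, against 10.8%. The median difference of the 10 genes was -0.55, and 8 of them were negative, against 47.1% of all genes. Without Foxs1 the median was -0.54 and 2 of 9 were called.

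**Figure D2:**
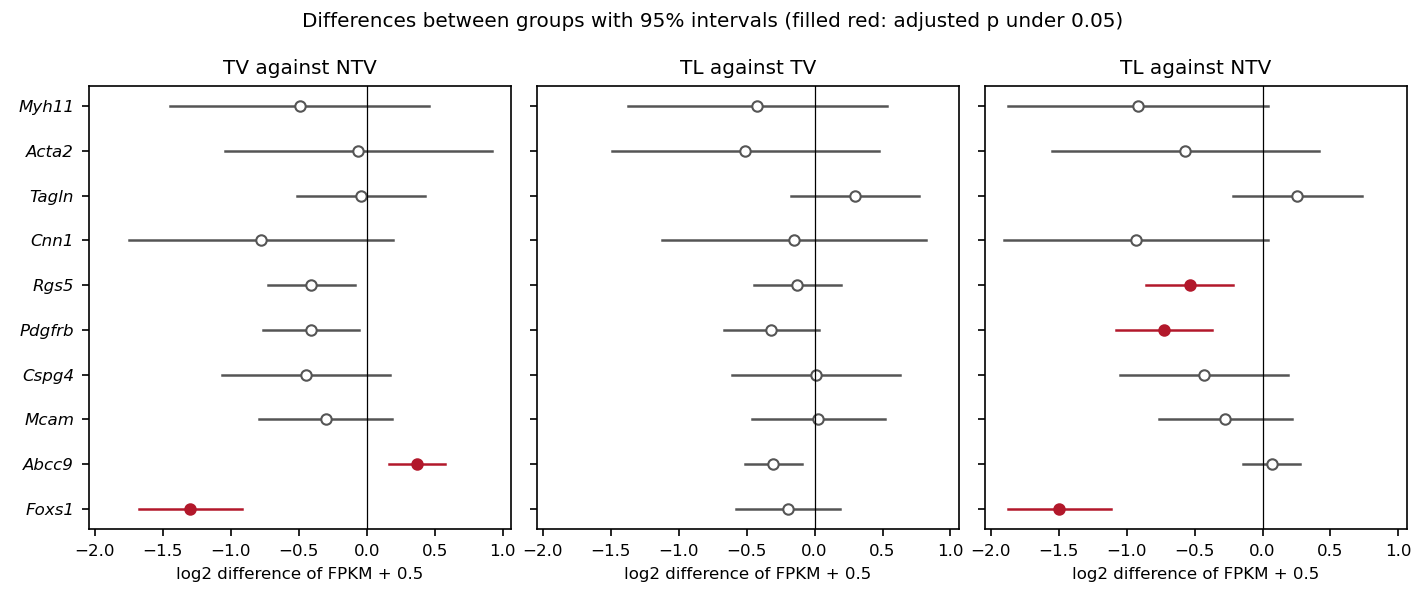
Log2 differences of FPKM + 0.5 for each gene in the 3 comparisons, with 95% intervals from limma. Filled red points passed an adjusted p of 0.05: Abcc9 and Foxs1 for TV against NTV, 0 genes for TL against TV, and Rgs5, Pdgfrb and Foxs1 for TL against NTV. The intervals of Myh11, Acta2 and Cnn1 are the widest.

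Of the contractile genes, Myh11 encodes the smooth muscle myosin heavy chain and is the most specific marker of mature smooth muscle (chr16:14194535-14291372, minus strand of build mm10, as are all positions below). It had 4.87, 3.53, 3.41 and 5.73 FPKM in TL 1, 4, 5 and 7, 4.92, 6.61, 2.63 and 13.6 FPKM in TV 3, 4, 6 and 8, and 10.9, 6.01, 16.4 and 4.83 FPKM in NTV 2, 3, 5 and 6. The 4 TL values lay in a narrow low range, while TV and NTV each held both low and high mice, and the groups overlapped. The log2 difference was -0.49 ± 0.44 for TV against NTV (adjusted p = 0.437) and -0.92 ± 0.44 for TL against NTV (adjusted p = 0.199). For TL against TV it was -0.42 ± 0.44 (adjusted p = 0.686). The 95% interval for TV against NTV ran from -1.45 to 0.46, so differences of more than 2-fold in the negative direction lie within it.

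Acta2 encodes alpha smooth muscle actin, the main actin of vascular smooth muscle, at chr19:34241090-34255336 on the minus strand. Its level was 27.3, 23.2, 21.4 and 42.4 FPKM in TL 1, 4, 5 and 7, 34.7, 43.4, 19.1 and 83.3 FPKM in TV 3, 4, 6 and 8, and 55.6, 27.2, 77.8 and 24.2 FPKM in NTV 2, 3, 5 and 6. TV 8 and NTV 5 were the highest, and the lowest of all was TV 6, so TV held both extremes. The difference was -0.06 ± 0.45 for TV against NTV (adjusted p = 0.938), -0.51 ± 0.45 for TL against TV (adjusted p = 0.624) and -0.57 ± 0.45 for TL against NTV (adjusted p = 0.440). Leaving out 1 library at a time moved the difference between TV and NTV from -0.42 to 0.28, so its direction rests on single mice. Acta2 belongs to a family of near-identical actins, and Acta1, the actin of skeletal muscle fibres, averaged 14765 FPKM in TL, 19005 FPKM in TV and 21550 FPKM in NTV. Of the 100-base stretches of Acta2 transcripts, 0 of 2096 occurred in another gene.

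Cnn1 encodes calponin 1, an actin-binding protein that damps contraction, at chr9:22099216-22109630 on the plus strand. It had 0.613, 0.797, 0.279 and 1.18 FPKM in TL 1, 4, 5 and 7, 0.630, 0.511, 0.306 and 2.63 FPKM in TV 3, 4, 6 and 8, and 2.00, 1.05, 3.93 and 0.967 FPKM in NTV 2, 3, 5 and 6. In TV, 3 mice lay below every NTV mouse and TV 8 lay above 3 of them. The difference was -0.78 ± 0.45 for TV against NTV (adjusted p = 0.216) and -0.93 ± 0.45 for TL against NTV (adjusted p = 0.198). For TL against TV it was -0.15 ± 0.45 (adjusted p = 0.904). Without TV 8, Cnn1 was called lower in TV than in NTV, at -1.20 (adjusted p = 0.0377, over a range of 0.0377 to 0.486 for 23 settings). The values rest on 12 to 217 reads per library.

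Tagln encodes transgelin, also called SM22, a further actin-binding protein and an early smooth muscle marker, at chr9:45929619-45936058 on the minus strand. Its level was 0.681, 0.606, 0.448 and 0.737 FPKM in TL 1, 4, 5 and 7, 0.186, 0.676, 0.331 and 0.508 FPKM in TV 3, 4, 6 and 8, and 0.303, 0.360, 0.872 and 0.296 FPKM in NTV 2, 3, 5 and 6. It was low everywhere, and 3 of the 4 NTV mice lay below all TL mice. For Myh11, Acta2 and Cnn1 the NTV mean was above the TL mean. Differences were -0.04 ± 0.22 for TV against NTV (adjusted p = 0.915), 0.30 ± 0.22 for TL against TV (adjusted p = 0.541) and 0.26 ± 0.22 for TL against NTV (adjusted p = 0.476). Each library held 9 to 35 Tagln reads. The exons of Tagln share 1241 bases, 62.4% of their length, with the antisense gene Gm48529, and 108 bases with Pcsk7, both on the opposite strand. Gm48529 averaged 0.241 FPKM and Pcsk7 3.69 FPKM. Use of strand in counting is not stated, so reads of Tagln and of these genes cannot be told apart in the shared bases.

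Myh11, Acta2 and Cnn1 were high in the same mice, and Tagln followed them only in part. NTV 5, TV 8 and NTV 2 were the 3 highest libraries for each of Myh11, Acta2 and Cnn1. Tagln was also highest in NTV 5, but ranked 6th of the 12 libraries in TV 8 and 10th in NTV 2. Although Myh11 varied 6.23-fold and Acta2 4.37-fold over the 12 mice, the ratio of Acta2 to Myh11 in FPKM stayed between 4.53 and 7.39, with a median of 6.21. Myh11 over Cnn1 ran from 4.18 to 12.9, and Acta2 over Tagln from 38.2 to 187. The coefficient of variation of Myh11 was 25.5% in TL, 68.0% in TV and 55.4% in NTV. Schwann cell markers were high in the same libraries, with sums of 101 FPKM in NTV 5, the highest of all, 68.7 FPKM in TV 8, the highest of TV, and 67.5 FPKM in NTV 2, the second of NTV. They were also high in TL 7, at 71.0 FPKM, and TL 1, at 67.3 FPKM. Muscle fibre markers were highest of all in TV 8, at 86823 FPKM, and lowest of NTV in NTV 5, at 49252 FPKM. Adipocyte markers summed to 163 FPKM in NTV 5, the highest of NTV, to 114 FPKM in TV 8 and to 49.6 FPKM in NTV 2, the lowest of NTV. Their part in the result was not tested.

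**Figure D3:**
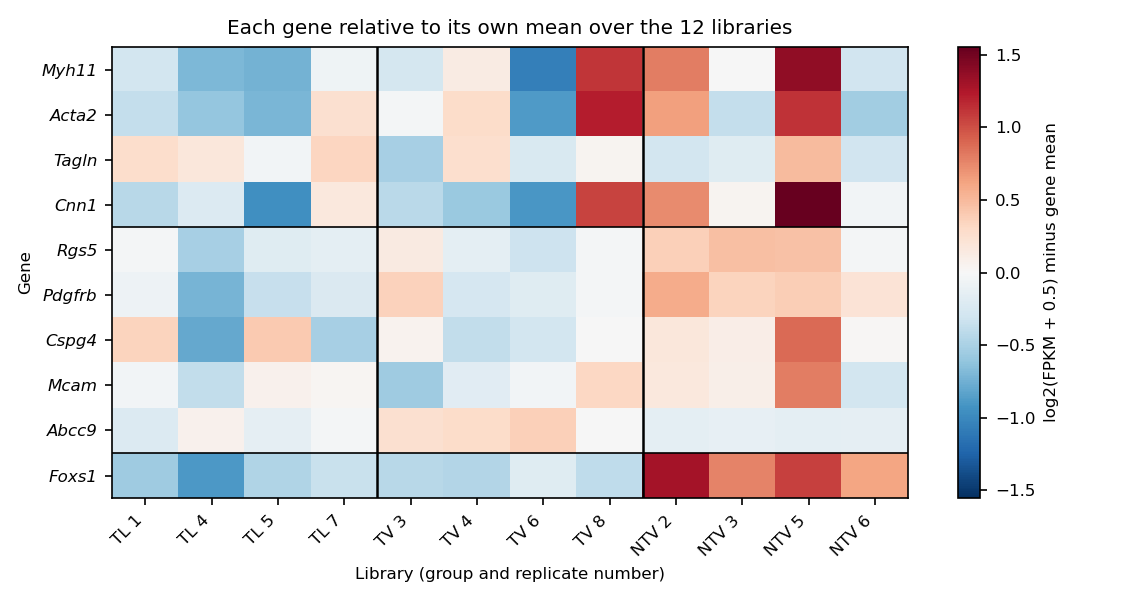
Each gene in each library, as log2(FPKM + 0.5) minus the mean of that gene over the 12 libraries, with red above and blue below the mean. Columns are mice in the order TL, TV and NTV, and rows are grouped as contractile genes, pericyte and mural markers, and Foxs1. NTV 5, TV 8 and NTV 2 are red in Myh11, Acta2 and Cnn1 together, while Foxs1 is red in the 4 NTV mice and blue in the 8 mice with a tumour.

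Among the genes whose pattern over the 12 libraries was most like that of Myh11, the 5 closest protein-coding genes outside the 10 were Mylk, Csrp1, Flna, Myl9 and Cytl1, with Pearson r from 0.931 for Cytl1 to 0.956 for Mylk. With group means removed, r was still 0.943 for Mylk and 0.961 for Cytl1. Mylk encodes the myosin light chain kinase that starts smooth muscle contraction, and Myl9 its light chain substrate. These r values are descriptions over 12 libraries that share scaling and groups.

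Of the pericyte and mural markers, Rgs5 encodes a regulator of G-protein signalling that is abundant in pericytes, at chr1:169655501-169695813 on the plus strand. It had 68.8, 48.9, 61.8 and 63.5 FPKM in TL 1, 4, 5 and 7, 77.4, 63.3, 56.2 and 68.7 FPKM in TV 3, 4, 6 and 8, and 91.2, 97.6, 96.3 and 68.7 FPKM in NTV 2, 3, 5 and 6. NTV 2, 3 and 5 lay above all 8 mice with a tumour, and NTV 6 lay among them. Rgs5 averaged 60.8 ± 8.44 FPKM in TL, 66.4 ± 8.94 FPKM in TV and 88.5 ± 13.5 FPKM in NTV (SD, n = 4 each). It fell in TL relative to NTV by 0.54 ± 0.15 on the log2 scale (limma, adjusted p = 0.0438). This call held in 13 of 23 settings, over which the adjusted p ranged from 0.0306 to 0.117. It was lost without any 1 of TL 4, 5 or 7 or NTV 2, 3 or 5, and also without TL 1 and TL 5 together, with no filter, with equal totals of reads and in a fit of the 2 groups alone. TV was lower than NTV by a similar amount but short of the threshold, at -0.41 ± 0.15 (adjusted p = 0.0604). That difference passed in 5 of 23 settings (adjusted p from 0.0257 to 0.137), namely equal totals with and without the most abundant genes, quantile normalization, library weights and leaving out NTV 6. TL against TV gave -0.13 ± 0.15 (adjusted p = 0.721).

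Pdgfrb encodes the receptor through which endothelial PDGF-B recruits pericytes, and lies at chr18:61045150-61085061 on the plus strand. Its level was 4.20, 2.50, 3.36 and 3.75 FPKM in TL 1, 4, 5 and 7, 5.89, 3.64, 3.86 and 4.35 FPKM in TV 3, 4, 6 and 8, and 6.93, 5.79, 5.96 and 5.26 FPKM in NTV 2, 3, 5 and 6. All 4 TL mice were below all 4 NTV mice, and 3 of the TV mice were too, while TV 3 lay within the NTV range. Pdgfrb fell in TL relative to NTV by 0.73 ± 0.16 on the log2 scale (limma, adjusted p = 0.0200). The call was lost without TL 4 (adjusted p = 0.0529), NTV 2 (0.0557) or NTV 5 (0.0506) and held in the other 20 of 23 settings, the lowest adjusted p being 0.0122. TV against NTV gave -0.41 ± 0.16 (adjusted p = 0.0821), which passed in 3 of 23 settings (range 0.0311 to 0.200), including leaving out TV 3. TL against TV gave -0.32 ± 0.16 (adjusted p = 0.360), with a 95% interval that includes 0.

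The ratio of Rgs5 to Pdgfrb in FPKM lay between 13.1 and 19.5 in the 12 mice. It was 16.4 to 19.5 in TL and 13.1 to 16.9 in NTV. Rgs5 over Myh11 spanned more, from 5.07 to 21.3, but Myh11 alone varied 6.23-fold, against 2.77-fold for Pdgfrb and 2.00-fold for Rgs5. Pdgfrb is also a gene of fibroblasts, and markers of fibro-adipogenic progenitors, the fibroblast-like cells of muscle, moved in the same direction. Their summed level was 73.2 to 145 FPKM in TL, 104 to 160 FPKM in TV and 184 to 265 FPKM in NTV, with 6 of 12 called lower in TL than in NTV, beside 4.62% of all genes, and 8 of 12 lower in TV than in NTV, beside 11.5%. Tenocyte markers summed to 18.8 to 46.3 FPKM in TL, 17.5 to 42.5 FPKM in TV and 65.0 to 123 FPKM in NTV. Of 7 tested 5 fell in TL, or 71.4% beside 4.62% of all genes, and 6 in TV, or 85.7% beside 11.5%. Cilp2, counted in both, averaged 0.320 FPKM in TL, 0.0904 FPKM in TV and 2.21 FPKM in NTV. It passed the filter only through NTV, so it had to differ in order to be tested. Scx, another tested tenocyte marker, went the other way, averaging 9.86 FPKM in TL, 11.2 FPKM in TV and 4.89 FPKM in NTV. It was not called (limma, adjusted p = 0.181 for TL and 0.0505 for TV against NTV). Endothelial markers summed to 122 to 163 FPKM in TL, 147 to 166 FPKM in TV and 124 to 166 FPKM in NTV, ranges that overlap. Tmem100, a marker that rose, is singled out after its values were seen. The other 14 summed to 77.6 to 110 FPKM in TL, 100.1 to 130 FPKM in TV and 121 to 161 FPKM in NTV. Every TL sum was thus below every NTV sum, as were the values of 10.1% of all tested genes taken singly. Tmem100 itself averaged 37.5 ± 21.5 FPKM in TL, 46.2 ± 14.2 FPKM in TV and 6.15 ± 2.49 FPKM in NTV (SD, n = 4 each). Of 15 endothelial markers, 3 fell and 1 rose in TL relative to NTV, or 20% and 6.67% beside 4.62% and 4.19% of all genes, with a list median of -0.37. In TV relative to NTV 2 fell and 1 rose, or 13.3% and 6.67% beside 11.5% and 13.8% of all genes, with a list median of -0.19. No marker of these lists was at 0 in all libraries. The part of these other cells in the results for Rgs5, Pdgfrb and Foxs1 was not tested.

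The 5 genes with the pattern most like Rgs5 were Srgn, Mpzl1, Tpm4, Rftn1 and Gnb1, with r from 0.908 for Gnb1 to 0.966 for Srgn over 12 libraries. With group means removed, r was 0.952 for Srgn and 0.799 for Gnb1. Tpm4, a tropomyosin of non-muscle cells and smooth muscle, averaged 10.7 FPKM in TL, 12.5 FPKM in TV and 22.3 FPKM in NTV.

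Cspg4 encodes NG2, a surface proteoglycan of pericytes and of glial precursors, at chr9:56865033-56899870 on the plus strand. It had 1.14, 0.245, 1.21 and 0.397 FPKM in TL 1, 4, 5 and 7, 0.836, 0.492, 0.561 and 0.785 FPKM in TV 3, 4, 6 and 8, and 0.950, 0.880, 1.88 and 0.803 FPKM in NTV 2, 3, 5 and 6. The TL mice were split, with TL 1 and TL 5 high and TL 4 and TL 7 lower than every other mouse. The difference was -0.44 ± 0.28 for TV against NTV (adjusted p = 0.269), 0.01 ± 0.28 for TL against TV (adjusted p = 0.992) and -0.43 ± 0.28 for TL against NTV (adjusted p = 0.345). Without TL 1 and TL 5, the libraries that stood apart, Cspg4 was called lower in TL than in NTV at -0.95 (adjusted p = 0.0446, over a range of 0.0446 to 0.675 for 22 settings). Summed adipocyte markers ran from 54.1 to 349 FPKM in TL, 62.2 to 180 FPKM in TV and 49.6 to 163 FPKM in NTV, and TL 1 and TL 5 were the 2 highest TL libraries. Their part was not tested.

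Mcam encodes CD146, an adhesion molecule of pericytes, smooth muscle and endothelium, at chr9:44134469-44142727 on the plus strand. It had 8.08, 6.23, 8.72 and 8.49 FPKM in TL 1, 4, 5 and 7, 5.52, 7.32, 8.08 and 10.5 FPKM in TV 3, 4, 6 and 8, and 9.35, 8.90, 14.8 and 6.74 FPKM in NTV 2, 3, 5 and 6. The groups overlapped, and NTV 5 was the highest. The difference was -0.30 ± 0.22 for TV against NTV (adjusted p = 0.345), 0.03 ± 0.22 for TL against TV (adjusted p = 0.968) and -0.28 ± 0.22 for TL against NTV (adjusted p = 0.457). Its exons share 17 bases with Gm10687, which averaged 0.400 FPKM.

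Abcc9 encodes SUR2, the sulphonylurea receptor subunit of ATP-sensitive potassium channels, and was the only gene of the 10 that rose. It lies at chr6:142587862-142702315 on the minus strand. It had 37.8, 46.0, 39.6 and 43.0 FPKM in TL 1, 4, 5 and 7, 52.0, 53.3, 56.9 and 43.8 FPKM in TV 3, 4, 6 and 8, and 39.3, 40.0, 39.2 and 39.7 FPKM in NTV 2, 3, 5 and 6. All TV mice were above all NTV mice, and TL mice lay on both sides of the NTV range. Pearson r of Abcc9 over the 12 libraries was negative with every other gene of the 10, from -0.175 for Acta2 to -0.561 for Cspg4. With Rgs5 it was -0.467 and with Pdgfrb -0.305, so Abcc9 did not follow the pericyte markers it is listed with. The share of Abcc9 RNA from fibres and from vessels was not tested. The 4 NTV values were nearly identical, with a coefficient of variation of 0.839%, below the 1.29% that counting error alone gives at their mean number of reads. Abcc9 rose in TV relative to NTV by 0.37 ± 0.10 on the log2 scale, a 1.29-fold difference (limma, adjusted p = 0.0164), and the call held without any 1 library. It ended under 3 other scalings between libraries, at 0.27 with equal totals of reads (adjusted p = 0.0948), 0.23 with quantile normalization (0.0836) and 0.26 with equal totals without mitochondrial and the 50 most abundant genes (0.0559), against a lowest adjusted p of 0.00513 over 23 settings.

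In TL, Abcc9 differed from TV by -0.30 ± 0.10 on the log2 scale, with a 95% interval of -0.51 to -0.09 and an unadjusted p of 0.00826, but the adjusted p over all genes was 0.171. TL against NTV gave 0.07 ± 0.10 (adjusted p = 0.684), with an interval that includes 0. The channel has a pore subunit beside SUR2, and both pore genes were measured. Kcnj11, the pore subunit Kir6.2 of muscle fibres, averaged 52.8 ± 6.02 FPKM in TL, 44.4 ± 5.92 FPKM in TV and 44.1 ± 5.46 FPKM in NTV (SD, n = 4 each), and Kcnj8, the pore subunit Kir6.1 of vessels, 5.63 ± 0.323 FPKM in TL, 7.76 ± 1.31 FPKM in TV and 8.11 ± 2.66 FPKM in NTV. Of the 3 other subunit genes tested, 0 passed in any comparison by limma or by voom. At an unadjusted p under 0.05 there was 1 for TL against TV, 1 for TL against NTV and 0 for TV against NTV. The shares of all genes were 16.1%, 27.5% and 39.1% in that order. Exons of Abcc9 share 158 bases, 1.89% of their length, with 5330439B14Rik on the opposite strand.

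Foxs1 encodes a forkhead transcription factor reported in pericytes and in neural crest derivatives of the mouse, and lies at chr2:152931898-152933208 on the minus strand. It showed the largest difference of the 10 genes in both comparisons with NTV. Foxs1 had 0.248, 0.0875, 0.291 and 0.362 FPKM in TL 1, 4, 5 and 7, 0.313, 0.299, 0.456 and 0.330 FPKM in TV 3, 4, 6 and 8, and 2.17, 1.36, 1.78 and 1.17 FPKM in NTV 2, 3, 5 and 6. The lowest NTV mouse was above the highest mouse with a tumour, and TL and TV overlapped. These levels rest on 6, 2, 6 and 11 reads in TL, 10, 7, 10 and 6 reads in TV, and 52, 30, 47 and 26 reads in NTV, summing to 25, 33 and 155 reads.

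Foxs1 averaged 0.247 ± 0.116 FPKM in TL, 0.349 ± 0.0721 FPKM in TV and 1.62 ± 0.448 FPKM in NTV (SD, n = 4 each). It fell in TV relative to NTV by 1.30 ± 0.17 on the log2 scale (limma, adjusted p = 0.00123) and in TL relative to NTV by 1.49 ± 0.17 (adjusted p = 0.00191). TL against TV gave -0.20 ± 0.17 (adjusted p = 0.628), with a 95% interval from -0.58 to 0.19. As a ratio of means in FPKM, without the added constant, TL was at 0.153 and TV at 0.216 of NTV. Foxs1 passed the filter on low values only through NTV, where its level is high, so it had to differ in order to be tested. With no filter the differences were the same and the adjusted p-values were 0.00309 for TV and 0.00513 for TL against NTV. It was called in 22 of 22 settings in both comparisons, with adjusted p from 0.000629 to 0.00509 for TV and from 0.00103 to 0.00767 for TL. Voom on the recovered reads gave -2.15 for TV and -2.70 for TL, where 0.5 is added to reads and not to FPKM.

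The 5 genes with the pattern most like Foxs1 were Lpar1, Col5a1, Fbn1, Rwdd4a and Ntng2, with r from 0.946 for Ntng2 to 0.963 for Lpar1 over 12 libraries. With group means removed, r was 0.658 for Lpar1 and 0.568 for Fbn1, lower than over all libraries. Col5a1, a chain of type V collagen, averaged 1.18 FPKM in TL, 1.34 FPKM in TV and 3.95 FPKM in NTV, and Fbn1, the microfibril protein fibrillin 1, 0.731 FPKM in TL, 1.32 FPKM in TV and 5.13 FPKM in NTV. Other forkhead genes of vessel development were too low to be tested, 0 of 5 reaching the filter. Foxc1 averaged 0.377 ± 0.0384 FPKM in TL, 0.429 ± 0.0783 FPKM in TV and 0.486 ± 0.244 FPKM in NTV (SD, n = 4 each), and Foxc2 0.271 ± 0.107 FPKM in TL, 0.240 ± 0.128 FPKM in TV and 0.242 ± 0.0653 FPKM in NTV.

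Further genes were followed through lists of known contractile and pericyte genes. These lists, like the other gene lists used here, were chosen with earlier results of these data known. Their shares beside all genes are descriptions and not separate support. Of 12 other smooth muscle contractile genes 11 were tested. In TV relative to NTV 1 fell, or 9.09% beside 11.5% of all genes, and in TL relative to NTV 3 fell, or 27.3% beside 4.62% of all genes. The list median was -0.32 for TV and -0.61 for TL against NTV, where the medians of all genes were 0.02 and 0.02. Smtn, the smooth muscle cytoskeletal protein smoothelin, had 17.4 ± 2.89 FPKM in TL, 13.7 ± 5.42 FPKM in TV and 32.3 ± 2.19 FPKM in NTV (SD, n = 4 each). It fell in TV by 1.29 ± 0.24 (limma, adjusted p = 0.00405) and in TL by 0.89 ± 0.24 (adjusted p = 0.0428) relative to NTV, with groups that did not overlap. Smtn did not follow Myh11 from mouse to mouse in NTV, at 30.4 to 35.4 FPKM where Myh11 ran from 4.83 to 16.4 FPKM. Its mean was lower in TV than in TL, the reverse of Myh11. The cells that gave the Smtn RNA were not tested. Cald1, the actin-binding caldesmon, fell in TL relative to NTV by 0.86 ± 0.20 (adjusted p = 0.0240), and Tgfb1i1, the focal adhesion protein Hic-5, by 0.69 ± 0.18 (adjusted p = 0.0395). In TV their differences from NTV were -0.43 ± 0.20 for Cald1 (adjusted p = 0.138) and -0.53 ± 0.18 for Tgfb1i1 (adjusted p = 0.0544).

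Of 14 other pericyte genes 13 were tested, and 4 fell in TV relative to NTV, or 30.8% beside 11.5% of all genes. In TL relative to NTV 3 fell, or 23.1% beside 4.62% of all genes. The list median was -0.53 for TV and -0.46 for TL against NTV. Ndufa4l2, a mitochondrial protein enriched in pericytes, had 2.70 ± 0.827 FPKM in TL, 4.69 ± 1.27 FPKM in TV and 8.16 ± 1.06 FPKM in NTV (SD, n = 4 each). It fell in TV by 0.76 ± 0.21 (adjusted p = 0.0243) and in TL by 1.47 ± 0.21 (adjusted p = 0.00394) relative to NTV. Cox4i2, an isoform of a cytochrome c oxidase subunit, fell in TV by 0.81 ± 0.22 (adjusted p = 0.0210) and in TL by 1.16 ± 0.22 (adjusted p = 0.0110). Heyl, a target of Notch3 signalling in mural cells, fell in TV by 0.83 ± 0.18 (adjusted p = 0.00681) and in TL by 0.94 ± 0.18 (adjusted p = 0.0105). The 14 genes summed to 29.8 to 45.6 FPKM in TL, 44.3 to 59.1 FPKM in TV and 54.9 to 71.3 FPKM in NTV. Every TL sum was thus below every NTV sum, as were the values of 10.1% of all tested genes taken singly. For TL against TV limma and voom called 0 of the 13, and 2 had an unadjusted p under 0.05, as had 16.1% of all genes. Among the 11 contractile genes limma and voom called 0 as well, and 0 had an unadjusted p under 0.05.

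**Figure D4:**
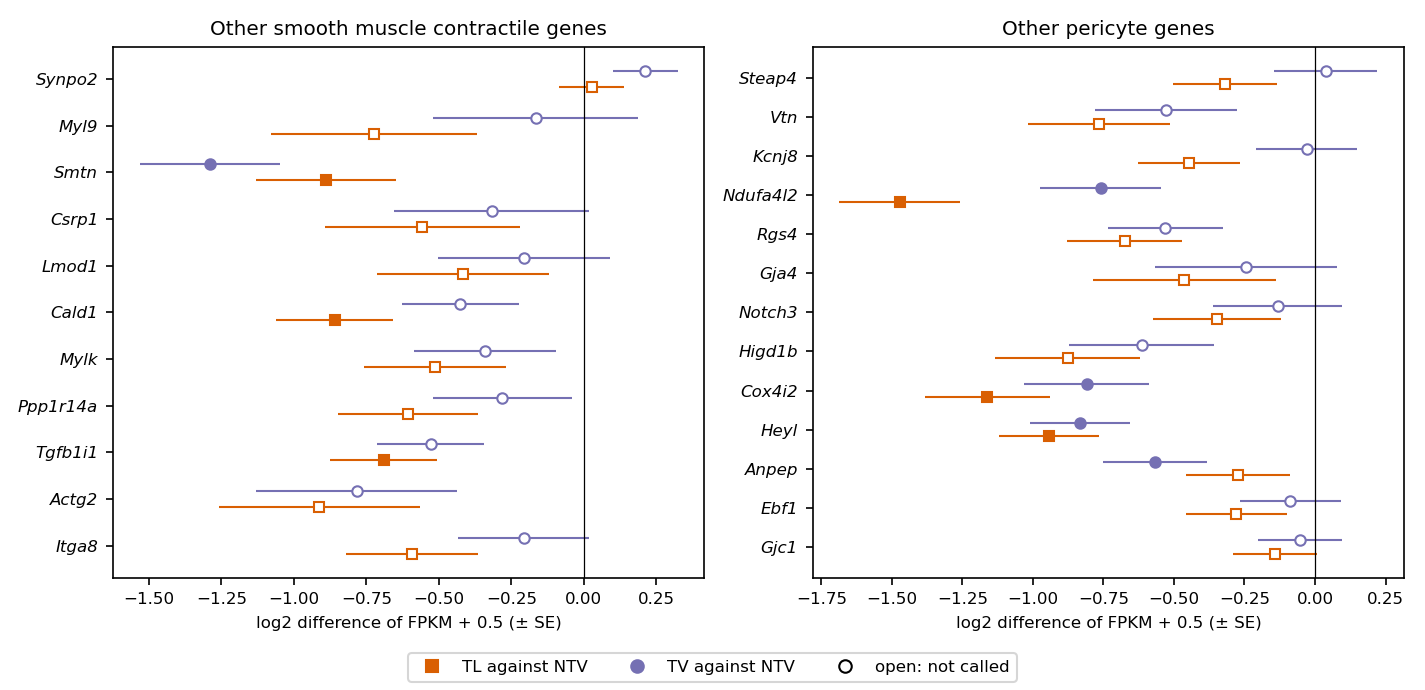
Log2 differences of FPKM + 0.5 with their SE for the other smooth muscle contractile genes (left) and the other pericyte genes (right), TL against NTV as squares and TV against NTV as circles. Filled symbols passed an adjusted p of 0.05. Most points lie below 0, and the filled ones are Smtn, Cald1 and Tgfb1i1 on the left and Ndufa4l2, Cox4i2, Heyl and Anpep on the right.

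Over 23 settings the call in TL relative to NTV held in 14 for Smtn (adjusted p from 0.00838 to 0.119), 18 for Cald1 (0.0147 to 0.0699) and 12 for Tgfb1i1 (0.0241 to 0.116), and it held in all 23 for Ndufa4l2, Cox4i2 and Heyl. Without TL 1 and 5 together the adjusted p was 0.0729 for Smtn, 0.0572 for Cald1 and 0.116 for Tgfb1i1. Leaving out 1 library ended the call of Smtn for TL 1, 4 or 7 or any NTV library, of Cald1 for TL 4 or NTV 2 or 5, and of Tgfb1i1 for each of the 8. For TV relative to NTV it held in all 23 settings for Smtn and Heyl, in 20 for Cox4i2 (0.00789 to 0.0591) and in 17 for Ndufa4l2 (0.00638 to 0.0694). The call of Cox4i2 was lost without TV 3 or 4 or NTV 3, and that of Ndufa4l2 without TV 3 or 4 or NTV 3, 5 or 6. Anpep was named after its values were seen.

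Of 12 tested genes of signalling between mural cells and endothelium, 1 rose and 1 fell in both comparisons with NTV, or 8.33% each way. Beside these stand 13.8% of all genes higher and 11.5% lower in TV, and 4.19% higher and 4.62% lower in TL. Angpt1, the ligand by which pericytes and other stromal cells steady endothelium through the receptor Tek, had 2.93 ± 1.14 FPKM in TL, 3.36 ± 0.502 FPKM in TV and 6.93 ± 1.03 FPKM in NTV (SD, n = 4 each). It fell in TV by 0.94 ± 0.22 (adjusted p = 0.0115) and in TL by 1.17 ± 0.22 (adjusted p = 0.0111) relative to NTV. Tgfbr1, a receptor for TGF-beta, rose in TV by 0.80 ± 0.20 (adjusted p = 0.0143) and in TL by 0.73 ± 0.20 (adjusted p = 0.0440). In TL the Tgfbr1 call held in 15 of 23 settings (0.0281 to 0.120), and was lost without TL 4 or 7 or without any 1 NTV library. Among 4 tested PDGF ligands and PDGFR-alpha, Pdgfa alone was called, higher in TL than in NTV by 0.48 ± 0.14 (adjusted p = 0.0493), or 25.0% of the 4 beside 4.19% of all genes. That call held in 9 of 23 settings (0.0325 to 0.207), and was lost without TL 1, 4 or 5 or NTV 3, 5 or 6, and without TL 1 and 5 together (adjusted p = 0.207). For TV against NTV limma and voom called 0 of these 4, and 0 had an unadjusted p under 0.05.

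Of 11 tested genes that set vascular tone, 2 fell in TV and 2 in TL relative to NTV, or 18.2% in both, beside 11.5% of all genes for TV and 4.62% for TL. Gucy1a1, a subunit of the nitric oxide receptor guanylate cyclase, fell in TV by 0.59 ± 0.17 (adjusted p = 0.0273) and in TL by 0.71 ± 0.17 (adjusted p = 0.0288). The TV call held in 16 of 23 settings (0.0117 to 0.0758), and was lost without TV 4 or 6 or NTV 2, 3 or 5. The TL call held in 15 of 23 (0.0148 to 0.103), and was lost without TL 1, 4 or 7 or NTV 2, 3 or 5, and without TL 1 and 5 together (adjusted p = 0.103). Ednrb, an endothelin receptor, fell in TL relative to NTV by 1.38 ± 0.31 (adjusted p = 0.0200), with 1.94 ± 0.588 FPKM in TL, 4.57 ± 0.956 FPKM in TV and 6.32 ± 3.44 FPKM in NTV (SD, n = 4 each). Its call held in 20 of 23 settings (0.0159 to 0.0605), and was lost without TL 4, without NTV 3 and without TL 1 and 5 together (adjusted p = 0.0602). Ednra, the endothelin receptor of smooth muscle, fell in TV by 0.41 ± 0.14 (adjusted p = 0.0481), a call that held in 10 of 22 settings (0.0281 to 0.127), and was lost without TV 3, 6 or 8 or without any 1 NTV library.

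Of 10 tested genes of serum response factor, its partners and its targets, 2 rose and 2 fell in TV relative to NTV, or 20% each way beside 13.8% and 11.5% of all genes. In TL relative to NTV 0 rose and 2 fell, or 20% lower beside 4.62% of all genes. An unadjusted p under 0.05 was seen for 6 of the 10, beside 27.5% of all genes. Voom called 3 of the 10, where it called 1263 of the 12754 tested genes. Klf4, a factor that represses smooth muscle genes, rose in TV by 1.34 ± 0.40 (adjusted p = 0.0295). This held in 18 of 23 settings (0.0119 to 0.0808), and was lost without TV 3 or 8 or NTV 2 or 6. Cyr61, a secreted matricellular protein, rose in TV by 1.06 ± 0.24 (adjusted p = 0.00848). Mkl1, a coactivator of serum response factor, fell in TV by 1.31 ± 0.29 (adjusted p = 0.00835), with 3.82 ± 0.682 FPKM in TL, 2.56 ± 1.58 FPKM in TV and 6.36 ± 0.552 FPKM in NTV (SD, n = 4 each). Of the actin paralogs, Actc1, the cardiac actin, fell to 14.0 ± 11.8 FPKM in TL and 8.78 ± 5.54 FPKM in TV, against 101 ± 46.4 FPKM in NTV (SD, n = 4 each), by 3.03 ± 0.62 in TL and 3.59 ± 0.62 in TV (adjusted p = 0.0139 for TL and 0.00267 for TV).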

How the data were processed

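Muscle RNA of 12 mice, 4 each of TL, TV and NTV, was analysed. The authors deposited FPKM values, in 1 table that lists 54532 genes. Libraries were made from poly(A) RNA with random hexamer priming, per the labels' protocols. Build mm10, DESeq2, featureCounts 1.5.0-p3 and HISAT2 2.05 were used, per the submitters' processing notes, which give no roles. Strand use in counting is not given in the sources used here.

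Reads were recovered as whole multiples of 1 step per library for 100% of genes, within 0.1 read. The steps equal median-of-ratios size factors, so FPKM is scaled by these and not by library totals. For the tests, log2(FPKM + 0.5) of all 12 libraries was fitted with 1 mean per group in limma 3.58.1 (R 4.3.3), allowing the variance to follow the mean. P-values were adjusted by Benjamini-Hochberg across the 12754 genes averaging at least 0.5 FPKM. The fit was tried on simulated data first. Members and gene lists were chosen with earlier results of these data known. From each related list the text names up to 3 called genes with the largest change, or the 2 most abundant. Likeness is Pearson r over 12 libraries among protein-coding genes with a mean of at least 1 FPKM. Notch3, Kcnj8 and Actg2 stand in 2 related lists each, and Tek, Pdgfra and Acta1 each stand in 1 related list and 1 marker list.

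Other settings were other pseudocounts, filters and scalings, no trend, a robust fit, library weights, voom on recovered reads, a fit of 2 groups alone, a replicate block, each library left out in turn, and TL 1 and 5 left out together. Voom called 3366 genes for TV against NTV, 75 for TL against TV and 1263 for TL against NTV. Of the 10 genes, 9 have the same coordinates in the reference annotation; Acta2 differs. Overlaps between exons were read from that annotation. Marker lists for Schwann cells, satellite cells, macrophages and muscle fibres were also summed: they ran from 27.5 to 71.0, 14.5 to 21.8, 22.7 to 41.4 and 45379 to 53622 FPKM in TL, from 35.0 to 68.7, 13.4 to 32.8, 27.5 to 58.9 and 43431 to 86823 FPKM in TV, and from 27.2 to 101, 10.3 to 19.0, 22.7 to 57.7 and 49252 to 64047 FPKM in NTV. Figures were drawn with Python 3.11.15 and matplotlib 3.10.9.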

Additional observations from a re-analysis of the deposited data

Results flagged for a closer look

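In 3 of 30 sets of 4 libraries (10 genes in 3 groups), 1 library lay farther from the other 3 than expected, the gap to the nearest of them, divided by the range of the set, passing the 95% critical value of Dixon. Chance alone gives about 1 in 20 such sets. Cnn1 reached 2.63 FPKM in TV 8, a gap of 0.861 of the range, where the other TV mice had 0.306 to 0.630 FPKM. Cspg4 reached 1.88 FPKM in NTV 5, a gap of 0.863 of the range, where the other NTV mice had 0.803 to 0.950 FPKM. Tagln reached 0.872 FPKM in NTV 5, a gap of 0.889 of the range, where the other NTV mice had 0.296 to 0.360 FPKM.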

How the results depend on the processing

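The count of the 10 genes called for TV against NTV was 2, and it became 1 when a mean of at least 1 FPKM was required, which leaves Foxs1 untested, and 4 with library weights, which added Rgs5 and Pdgfrb. Leaving out each library in turn gave 2 to 3. For TL against NTV the count of 3 ranged from 1 to 3 when each library was left out, and was 1 (Foxs1) without TL 4, NTV 2 or NTV 5. For TL against TV it was 0 in every setting run. TV and NTV share the replicate numbers 3 and 6, and with the replicate block the count for TV against NTV stayed at 2, the same genes. Nothing in the labels says that equal numbers mark a shared litter or day. The correlation of deviations was 0.0142 for TV 3 with NTV 3 and 0.133 for TV 6 with NTV 6. It was 0.0751 for TL 4 with TV 4 and 0.0861 for TL 5 with NTV 5. So few pairs cannot tell whether equal numbers mark anything shared.

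Of 651 values for single genes under other settings, 602 kept their direction and call, 16 lost a call, 10 gained one and 23 turned direction. All that turned were uncalled differences. For TL against TV, Cspg4 became -0.0560 with a pseudocount of 0.1, -0.0550 with quantile normalization, -0.17 with voom and -0.50 without TL 1 and 5. Without TL 1 and 5, Cnn1 became 0.18 and Mcam -0.0686, and with equal totals of reads Rgs5 became 0.0037. Tagln for TV against NTV became 0.0815 with library weights. With each library left out in turn, TV against NTV ran from -0.42 to 0.28 for Acta2 and from -0.17 to 0.15 for Tagln, and TL against TV ran from -0.38 to 0.27 for Cnn1, -0.17 to 0.23 for Cspg4 and -0.12 to 0.17 for Mcam. Of 527 values for the 24 named calls of listed genes, 436 kept the call, 91 lost it and 0 turned. Equal totals of reads moved the median of all genes by 0.11 for TL against TV, to 0.11. The causes were not tested. Depth limits Foxs1 most, with 2 to 11 reads per library in mice with a tumour, then Tagln with 9 to 35.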

Other observations

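The proportion of Acta2 to Myh11 in FPKM differed between groups in a way that neither gene alone showed. It was 5.61 to 7.39 in TL, 6.14 to 7.23 in TV and 4.53 to 5.11 in NTV, so all 8 mice with a tumour lay above all 4 without. The ratio was chosen after its values were seen and is given without a test. The length deposited for Acta2 is 1781 bases, where the reference annotation gives 2196 exonic bases, which scales every library alike.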
